A study of Mus musculus with 6 samples.

Results

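NMDA receptors are ion channels that open when glutamate binds together with a co-agonist, glycine or D-serine, and they let calcium into the cell when the membrane is also depolarised. Each receptor is a tetramer of the obligatory GluN1 subunit (gene Grin1) with GluN2 subunits (Grin2a to Grin2d) or GluN3 subunits (Grin3a and Grin3b). The choice of GluN2 or GluN3 sets how long the channel stays open, how strongly magnesium blocks it and how much calcium it passes. In cortex they are known for synaptic plasticity, and they are the target of ketamine, an antidepressant of another class than fluoxetine.

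The genes described here were 6 subunit genes, Grin1, Grin2a, Grin2b, Grin2c, Grin2d and Grin3a, and the members were the array probe sets that the platform annotation assigns to one of these symbols alone. That gave 11 probe sets for 5 of the 6 genes, among 45037 probe sets and 18193 named genes in all. No probe set was assigned to Grin1 alone in the annotation used, so the obligatory subunit was not analysed here. Grin2a and Grin2c had 1 probe set each, Grin2d had 2, Grin3a had 3 and Grin2b had 4.

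The samples were 3 fluoxetine and 3 vehicle samples of ribosome-bound RNA from the cortex of S100a10 bacTRAP mice (line ES691), with 1 array each. In such mice a bacterial artificial chromosome with the control region of S100a10, the gene of the protein p11, drives a tagged ribosomal protein, and the tag is used to pull down ribosomes with the RNA they carry (TRAP). The fluoxetine group drank 0.167 mg/ml of this serotonin reuptake inhibitor with 1% saccharine, and the vehicle group 1% saccharine, for 15 to 18 days. All 6 samples share the transgene and a background of FVB crossed onto C57BL/6 over 3 to 5 generations. The sources used here do not state age, sex or how many animals went into a sample, and the p-values below measure the spread between these samples.

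The submitters state that some non-neuronal cells carry the tag too, and the selection of probe sets in their paper's supplement was not used here. S100a10 was bright on all arrays, with a mean log2 intensity of 15.08 ± 0.09 (SD, n = 3) in the fluoxetine group and 15.15 ± 0.07 (SD, n = 3) in the vehicle group. All 6 layer 5 markers with a probe set passed the filter described below, as did all 10 interneuron and all 12 astrocyte markers. The 6 arrays had median intensities between 47.3 and 48.6. In material of mixed cells, fewer cells of a type and less RNA per cell cannot be told apart.

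Of the 11 probe sets, 5 were bright enough to be tested, with a geometric mean intensity of at least 50 over the 6 arrays: 2 of Grin2b, 2 of Grin3a and 1 of Grin2d. The dimmest tested one, of Grin2d, had a geometric mean of 67.1, and the brightest untested one, of Grin2b, one of 31.0. All 4 probe sets designed on a RefSeq mRNA (1 each for Grin2a, Grin2b, Grin2c and Grin2d) were among the 6 untested. Levels of different probe sets depend on their probes and are not compared with each other, and a dim probe set does not show that its gene is silent.

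**Figure D1:**
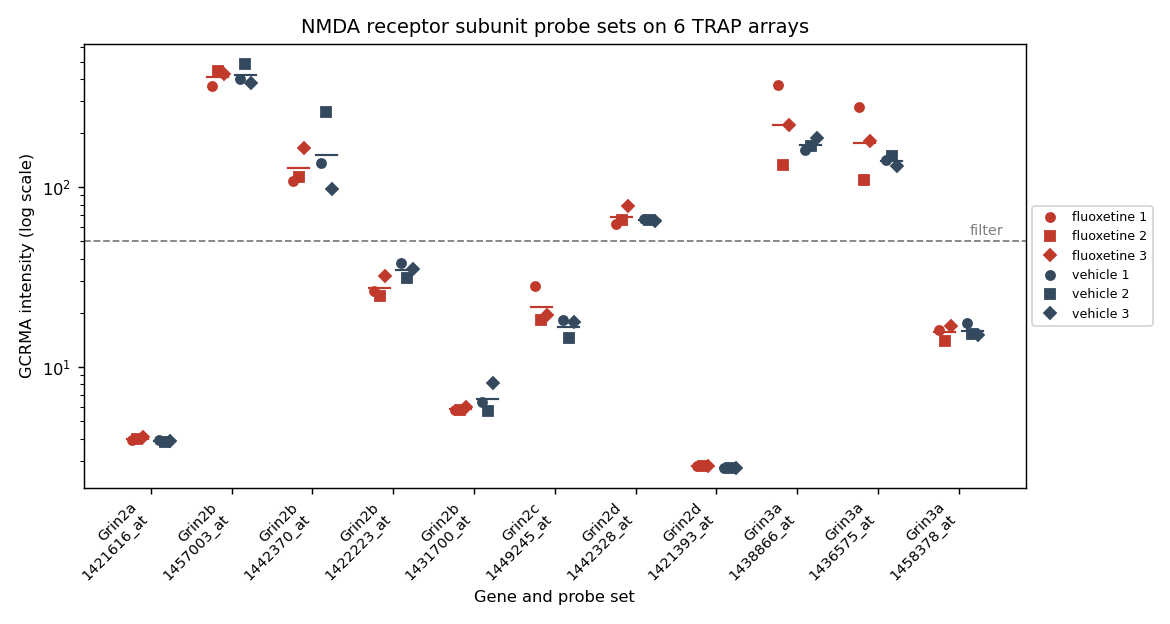
GCRMA intensity (log axis) of the 11 probe sets of NMDA receptor subunits on 6 arrays; each point is 1 array, short bars are group geometric means, and the dashed line is the filter at 50. The Grin3a probe sets 1438866_at and 1436575_at spread widely among the fluoxetine arrays and little among the vehicle arrays, and all 6 untested probe sets lie below the line.

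The comparison asks whether prolonged fluoxetine alters the translated RNA of NMDA receptor subunits in S100a10 cells. None of the 5 tested probe sets was called different by limma's moderated test (Benjamini-Hochberg adjusted p = 0.999 for each), and none had an unadjusted p under 0.05. Over all 22326 tested probe sets the same test called 0 (0%), and 2.52% had an unadjusted p under 0.05 (0.739% higher and 1.78% lower with fluoxetine). Of the 5, 3 were higher (Grin3a and Grin2d) and 2 lower (Grin2b) with fluoxetine, where 33.7% of all tested probe sets were higher. In none did the groups fail to overlap, against 8.05% of all tested probe sets (2.83% higher and 5.23% lower).

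Grin2b encodes GluN2B, the GluN2 subunit of slow channel closing that is abundant in the forebrain from before birth. Its brightest probe set, 1457003_at, measured 368, 441 and 424 with fluoxetine, against 400, 484 and 379 with vehicle (intensity, replicates 1 to 3). The groups overlapped almost completely. On the log2 scale the fluoxetine mean was 8.68 ± 0.14 and the vehicle mean 8.71 ± 0.19 (SD of 3 arrays), a difference of −0.03 ± 0.14 (SE).

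The 95% interval of that difference ran from −0.36 to 0.30, or a fold of 0.779 to 1.23, for this probe set. The sign of so small a difference depended on the scaling: it was 0.03 after quantile normalization and 0.03 after a shift of the arrays to a common median. It was also above 0 without fluoxetine 1 (0.05) and without vehicle 2 (0.07).

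The other tested Grin2b probe set, 1442370_at, read 108, 115 and 166 with fluoxetine, against 136, 262 and 97.9 with vehicle. Vehicle 2 stood highest and vehicle 3 lowest of the 6 arrays, so the vehicle range enclosed the fluoxetine range. The difference was −0.25 ± 0.36 (log2, SE; 95% interval −1.09 to 0.59, or a fold of 0.468 to 1.51), a wider interval than that of 1457003_at, and without vehicle 2 it was 0.14. Its spread among the vehicle arrays, an SD of 0.72, was exceeded by 1.36% of tested probe sets. Across the 6 arrays the pair of tested Grin2b probe sets varied together (Pearson r = 0.82, Spearman rho = 0.77, a description over 6 arrays, on each of which both were measured).

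The remaining Grin2b probe sets were below the filter. The RefSeq-based 1422223_at read 26.5, 24.9 and 32.2 with fluoxetine, against 37.9, 31.2 and 35.2 with vehicle, where the groups overlapped by 1 array on each side. Its difference was −0.32 ± 0.13 (log2, SE), and with all probe sets kept limma gave it an unadjusted p of 0.047 and an adjusted p of 0.742. The other, 1431700_at, lay between 5.75 and 6.03 with fluoxetine and between 5.70 and 8.12 with vehicle. All 4 Grin2b probe sets had a lower mean log2 value with fluoxetine, and none of the 4 separated the groups. Means were higher with fluoxetine for 33.7% of all tested probe sets and for 72.6% of those below the filter.

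Grin2a encodes GluN2A, the GluN2 subunit with fast kinetics that becomes prominent as the forebrain matures. Its 1 probe set, 1421616_at, read 3.93, 4.00 and 4.06 with fluoxetine, against 3.95, 3.82 and 3.86 with vehicle, close to the lowest value anywhere in the table, 1.74. At that level neither the presence of Grin2a RNA nor the balance of Grin2a to Grin2b could be followed here.

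Grin2c encodes GluN2C, best known in cerebellar granule cells and, in forebrain, in astrocytes. Its 1 probe set, 1449245_at, measured 28.3, 18.3 and 19.4 with fluoxetine, against 18.2, 14.5 and 17.8 with vehicle. Every fluoxetine array was above every vehicle array, by as little as 18.3 against 18.2, and fluoxetine 1 stood apart from the other 5 arrays. The difference of the means was 0.37 ± 0.20 (log2, SE), with an unadjusted p of 0.114 and an adjusted p of 0.742 by limma with all probe sets kept, and without fluoxetine 1 it was 0.17. Among the 22711 probe sets below the filter the groups did not overlap in 37.4%, of which those with all fluoxetine arrays above all vehicle arrays made 36.4% of the total and those with all below 0.964%, and 72.6% had a higher mean with fluoxetine.

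Grin2d encodes GluN2D, a subunit of very slow channel closing that in adult cortex is known mainly from inhibitory interneurons. The tested probe set, 1442328_at, measured 62.4, 65.3 and 78.7 with fluoxetine, against 67.0, 65.5 and 64.6 with vehicle. Fluoxetine 3 was highest and the other arrays lay close together, with vehicle arrays differing by a factor of only 1.04. The difference was 0.06 ± 0.13 (log2, SE; 95% interval −0.24 to 0.35), and −0.04 without fluoxetine 3.

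The other Grin2d probe set, 1421393_at, was near the bottom of the scale, at 2.80, 2.82 and 2.82 with fluoxetine, against 2.76 on each vehicle array. These groups did not overlap and their means differed by 0.03 in log2, as part of the same 36.4% of probe sets below the filter.

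Grin3a encodes GluN3A, a glycine-binding subunit that lowers calcium passage and magnesium block and is known for holding synapses in an immature state. Its tested probe sets varied more among the fluoxetine arrays than those of Grin2b and Grin2d. Probe set 1438866_at measured 373, 134 and 221 with fluoxetine, against 161, 169 and 188 with vehicle. Probe set 1436575_at measured 279, 110 and 180 with fluoxetine, against 141, 149 and 131 with vehicle.

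In both, fluoxetine 1 was the highest of the 6 arrays, fluoxetine 3 was the second highest, and fluoxetine 2 was the lowest of the 6. The highest fluoxetine array exceeded the lowest by a factor of 2.79 for 1438866_at and 2.54 for 1436575_at, against 1.16 and 1.14 among the vehicle arrays. The fluoxetine SD was 0.74 and 0.67 in log2, and 2.09% and 2.97% of tested probe sets had a greater one, with a median of 0.19.

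The mean difference of Grin3a was 0.37 ± 0.34 for 1438866_at and 0.34 ± 0.31 for 1436575_at (log2, SE), or folds of 1.29 and 1.26. The 95% intervals were −0.43 to 1.16 and −0.39 to 1.06, so a rise to 2.24 times the vehicle level and a fall to 0.743 of it both lay inside the wider one. The value rested on which fluoxetine arrays were used. Without fluoxetine 1 the differences were −0.01 and 0.01, and without fluoxetine 2 they were 0.73 and 0.68, where limma's unadjusted p was 0.022 and 0.018 and the smallest adjusted p of all probe sets was 0.908.

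The 2 bright Grin3a probe sets varied together over the 6 arrays (Pearson r = 0.97, Spearman rho = 0.83, as a description). The dim one, 1458378_at, did not show the pattern: it read 16.1, 13.9 and 17.0 with fluoxetine, against 17.5, 15.3 and 15.1 with vehicle.

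**Figure D2:**
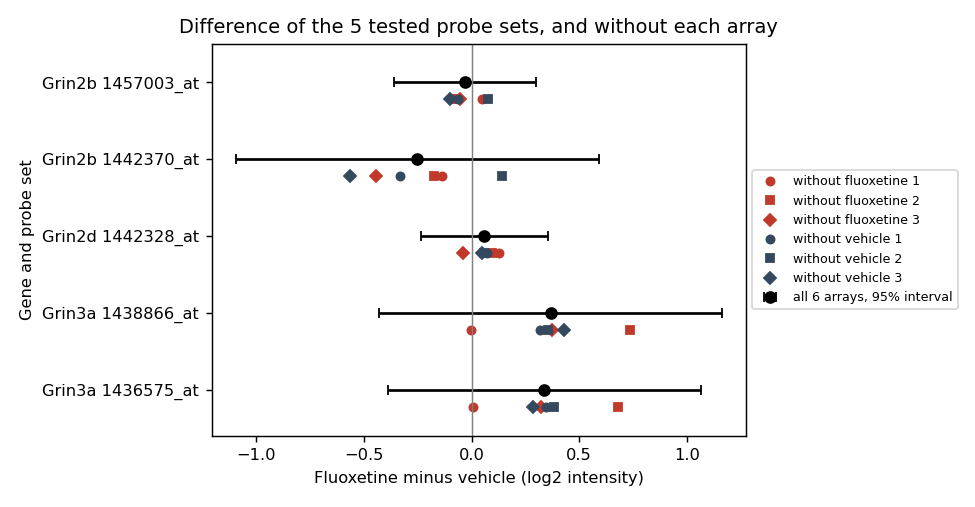
Fluoxetine minus vehicle in log2 intensity for the 5 tested probe sets; black points with bars are the difference and its 95% interval over all 6 arrays, and coloured points below them are the difference with 1 array left out. All 5 intervals cross 0, and for Grin3a the points without fluoxetine 1 lie at −0.01 and 0.01 while those without fluoxetine 2 lie at 0.73 and 0.68.

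Unequal change between subunits was examined as the difference of log2 values within an array. This removes a shift that is equal for all probe sets of an array, and not one that varies with intensity. The pairs with Grin1, and Grin2a with Grin2b, could not be computed, so the 3 pairs among Grin2b, Grin2d and Grin3a were used, a choice made after the values were seen. Grin3a relative to Grin2b averaged −0.88 ± 0.87 on the fluoxetine arrays and −1.28 ± 0.25 on the vehicle arrays (log2, SD of 3), and the groups differed by 0.40 (exact two-sided permutation p = 0.6).

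Grin3a relative to Grin2d differed by 0.31 (exact p = 0.8) and Grin2d relative to Grin2b by 0.09 (exact p = 0.6). After Benjamini-Hochberg adjustment over the 3 pairs each exact permutation p was 0.8, where 0.1 is the smallest that 3 arrays against 3 allow. Without fluoxetine 1, Grin3a differed by −0.05 relative to Grin2b and by −0.13 relative to Grin2d.

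Because Grin3a varied among the fluoxetine arrays, the marker lists of other cell types were set beside it. The order fluoxetine 1 above 3 above 2 that both Grin3a probe sets showed was found for 7 of 12 astrocyte markers, 4 of 5 oligodendrocyte precursor markers (Olig2, below the filter, among the 5) and 3 of 5 meningeal markers, against 25.6% of all tested probe sets. It was found for 3 of 10 interneuron markers, close to that share, and for 2 of 7 microglial and 2 of 6 oligodendrocyte markers. Of layer 5 markers 1 of 6 showed it, and of upper layer markers 1 of 4. None of the 5 pericyte and smooth muscle, 6 endothelial, 3 layer 6 and 4 general pyramidal markers did. Gfap, the astrocyte intermediate filament, read 4484, 22.5 and 519 with fluoxetine, against 26.1, 37.8 and 50.8 with vehicle. Aqp4, the astrocyte water channel, read 826, 174 and 553 with fluoxetine, against 259, 294 and 262 with vehicle. Gfap and Aqp4 had the largest fluoxetine SD of the 12 astrocyte markers (3.84 and 1.17 in log2). The brighter astrocyte markers Gja1 and Gjb6 were instead highest among the fluoxetine arrays on fluoxetine 2. Gja1 read 22829, 24722 and 22422 with fluoxetine, against 22881, 27354 and 27866 with vehicle. Gjb6 read 6866, 9274 and 6214, against 6934, 7366 and 8322. Olig1, a transcription factor of the oligodendrocyte lineage, read 3227, 734 and 1715 with fluoxetine, against 1170, 1249 and 1499 with vehicle.

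Summed over its genes, the oligodendrocyte precursor list measured 5104, 2051 and 3262 with fluoxetine, against 2444 to 2814 with vehicle, and of its 5 genes Olig2 was below the filter. Such sums weigh bright probe sets most. Of these 5 genes Olig1, given above, had the widest spread among the fluoxetine arrays (SD 1.07 in log2). The astrocyte list measured 78165, 65907 and 67138 with fluoxetine, against 64479 to 72514 with vehicle, with none of its 12 genes below the filter. The interneuron list measured 28247, 20741 and 27541 with fluoxetine, against 23759 to 24883 with vehicle, also with none below the filter. All 5 meningeal markers were higher in their means with fluoxetine (median 0.48 in log2), and their sum was 16323, 12185 and 15185, against 11541 to 14821 with vehicle. Of these 5, 2 had a limma unadjusted p under 0.05, where 0.739% of all tested probe sets were higher at that level. All 5 pericyte and smooth muscle markers were lower in their means (median −0.41 in log2), with a sum of 6889, 9205 and 7968 with fluoxetine, against 8568 to 13485 with vehicle, and 1 of them, Vtn, had groups that did not overlap (limma unadjusted p = 0.030, adjusted p = 0.999). Groups also did not overlap for the tested markers Sox9 (astrocyte, 0.58 in log2), Vip (interneuron, −0.39), Lum (meningeal, 0.48) and Col1a1 (meningeal, 0.75). Their limma unadjusted p was 0.0011, 0.0063, 0.063 and 0.017, and the adjusted p was 0.999 for each. The 2 other tested Sox9 probe sets were higher by 0.09 and 0.13. Over all tested probe sets 8.05% did not overlap (2.83% higher and 5.23% lower). Within the interneuron list Sst, a marker of a class of interneurons known to express Grin3a, read 2387, 1340 and 1834 with fluoxetine, against 1408, 2468 and 2053 with vehicle. Unlike the bright Grin3a probe sets, Sst varied as much among the vehicle arrays (SD 0.41 in log2) as among the fluoxetine arrays (0.42). The part of these cell types in the Grin3a values was not tested.

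The fluoxetine 1 array was also the highest of the 6 for 24.1% of all tested probe sets. The sum of 5 nuclear and long non-coding transcripts, taken as signs of RNA quality, was lowest on fluoxetine 1, at 740, 1349 and 1406 with fluoxetine, against 1909, 1452 and 823 with vehicle, and all 5 were lower in their means with fluoxetine. The transcripts did not share 1 lowest array. Malat1 and Snhg11 were lowest on fluoxetine 1, Neat1 and Miat on fluoxetine 3, and Meg3 on vehicle 3. The part of RNA quality in the Grin3a values was not tested either.

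**Figure D3:**
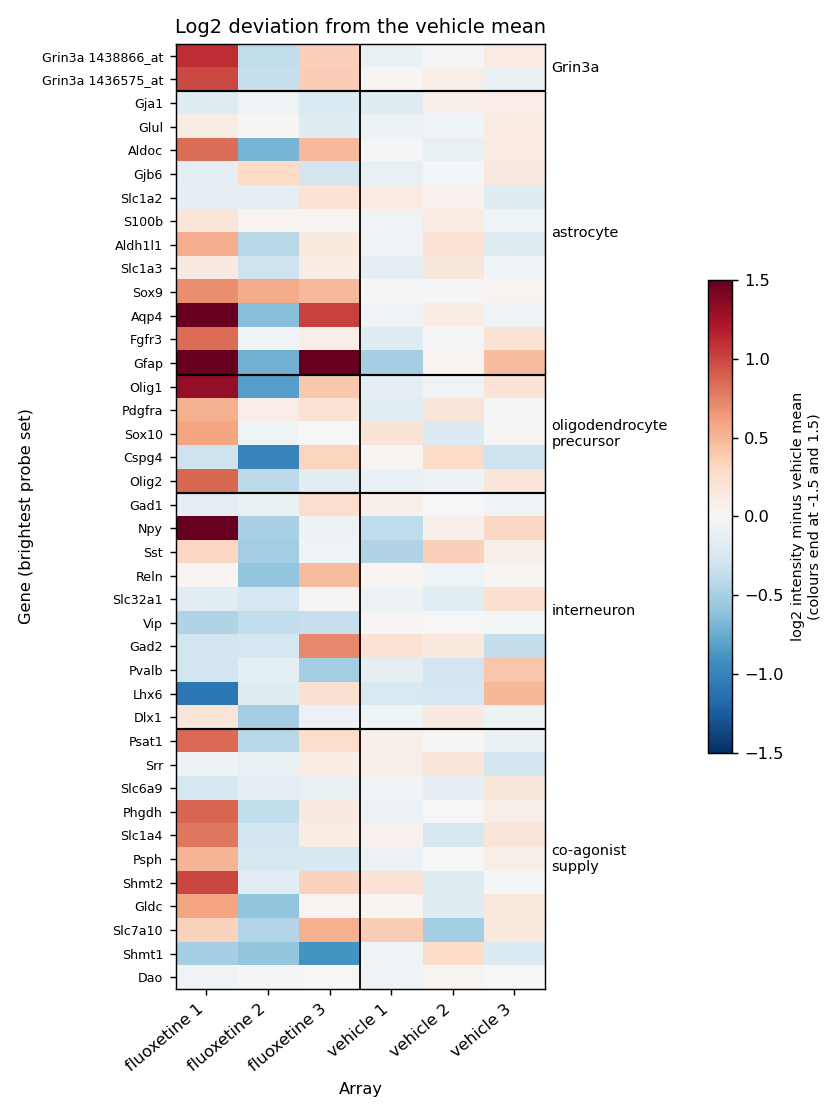
Log2 intensity minus the vehicle mean, by array, for the bright Grin3a probe sets and for all genes of the astrocyte, oligodendrocyte precursor, interneuron and co-agonist supply lists with a probe set; red is higher and blue lower, and colours end at −1.5 and 1.5. Fluoxetine 1 is red and fluoxetine 2 blue for Grin3a, and the same order of the fluoxetine arrays is seen in 7 of 12 astrocyte, 4 of 5 oligodendrocyte precursor, 3 of 10 interneuron and 6 of 11 co-agonist supply genes.

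The genes whose level followed a subunit most closely over the 6 arrays were looked up among 12247 genes by Pearson r of the brightest tested probe sets, as a description. For Grin3a these were Wscd1 (r = 0.999), Amhr2, the receptor of anti-Müllerian hormone (r = 0.996), and Agmat, agmatinase (r = 0.996), and 440 genes had r above 0.9. For Grin2b they were Mir124-2hg, the host transcript of a neuronal microRNA (r = 0.996), the acid-sensing channel gene Asic2 (r = 0.99) and the water channel gene Aqp11 (r = 0.99). For Grin2d they were Neto2, which encodes an auxiliary protein of kainate receptors, the microglial receptor gene Cx3cr1 (r = 0.98 each) and Mycbpap (r = 0.97). Between the subunits r was 0.25 between Grin2b and Grin2d, −0.61 between Grin2b and Grin3a and −0.08 between Grin2d and Grin3a.

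Of the other NMDA receptor genes, Grin3b, the second GluN3 gene, was below the filter. It read 67.5, 41.1 and 33.5 with fluoxetine, against 34.2, 44.9 and 36.1 with vehicle, with fluoxetine 1 again highest. Grina, whose name is that of an NMDA receptor-associated protein though it encodes no channel subunit, was bright and differed by 0.01 ± 0.12 (log2, SE).

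Scaffolds and trafficking proteins that anchor NMDA receptors in the postsynaptic density had 18 tested genes of 22 listed, of which 2 were higher, 16 lower and 0 called by limma. The median difference was −0.11 in log2, against −0.06 over all tested probe sets, of which 33.7% were higher. The membrane-associated guanylate kinases that bind GluN2 tails differed by −0.01 ± 0.20 (Dlg4, encoding PSD-95), −0.16 ± 0.15 (Dlg3), −0.15 ± 0.16 (Dlg2) and −0.12 ± 0.11 (Dlg1, log2, SE). A second tested probe set went the other way for Dlg4 (0.22) and Dlg2 (0.18). Shank1 was below the filter. The 1 gene of this list with an unadjusted p under 0.05 was Homer1, named for that reason, a scaffold with activity-induced short forms (−0.52 ± 0.16, with 4 of 4 other tested probe sets lower).

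Kinases and phosphatases that act on the receptor had 16 tested genes of 17 listed, 5 higher and 11 lower, with a median of −0.08 and 0 called by limma. Leaving out 1 array moved that median between −0.15 and 0.0064, above 0 without fluoxetine 2. Camk2a and Camk2b, the neuronal subunits of the calcium/calmodulin-dependent kinase that docks on GluN2B, differed by 0.09 ± 0.39 and −0.14 ± 0.18 (log2, SE). Both other tested Camk2a probe sets were lower. The tyrosine kinases Src and Fyn, which raise receptor currents, differed by −0.05 ± 0.12 and −0.18 ± 0.13. Ptpn5, encoding the opposing phosphatase STEP, differed by 0.26 ± 0.24 (−0.01 without fluoxetine 1) and Cdk5, a kinase of GluN2A and GluN2B, by −0.08 ± 0.15.

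Downstream signalling genes had 6 tested of 13 listed, 2 higher and 4 lower (median −0.12, 0 called by limma). The median lay between −0.22 and −0.0035 with 1 array left out, and nearest 0 without fluoxetine 2. Nos1, the nitric oxide synthase tethered to the receptor through PSD-95, had the largest difference among them, 0.61 ± 0.27 (log2, SE). It read 1434, 649 and 1011 with fluoxetine, against 607, 670 and 649 with vehicle, the same order of fluoxetine arrays as Grin3a. Without fluoxetine 1 the Nos1 difference was 0.34, and its other tested probe set was higher by 0.60. The exchange factor genes Rasgrf1 and Rasgrf2 differed by −0.15 ± 0.17 and −0.12 ± 0.21. A second tested Rasgrf2 probe set went the other way (0.09).

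Genes that supply or clear the co-agonists had 10 tested of 11 listed, 7 higher and 3 lower, with 0 called by limma. The median was 0.08 in log2, or 0.38 without fluoxetine 2 and −0.10 without fluoxetine 1. Phgdh, which starts serine synthesis, read 1858, 789 and 1116 with fluoxetine, against 956, 1015 and 1084 with vehicle (difference 0.21 ± 0.29, SE, or −0.12 without fluoxetine 1). Srr, the enzyme that makes D-serine, differed by −0.02 ± 0.15, the glycine transporter gene Slc6a9 by −0.18 ± 0.12 and the D-serine transporter gene Slc7a10 by 0.15 ± 0.31. The 4 other tested Srr probe sets lay between −0.10 and 0.21, and the other one of Slc6a9 was at 0.02. Dao, which degrades D-serine, was below the filter at 5.06 to 5.20 with fluoxetine and 5.06 to 5.38 with vehicle. The 1 gene with an unadjusted p under 0.05, named for that reason, was Shmt1, a serine and glycine converting enzyme (−0.66 ± 0.17), which read 52.7, 49.9 and 39.9 with fluoxetine, against 70.9, 90.1 and 64.2 with vehicle.

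The other ionotropic glutamate receptor subunits had 10 tested of 11 listed, 4 higher and 6 lower, with a median of −0.09 and 0 called by limma. With 1 array left out the median lay between −0.21 and 0.015, above 0 without vehicle 1. The AMPA receptor genes Gria1 and Gria2 differed by 0.06 ± 0.19 and −0.03 ± 0.27 (log2, SE), within their standard errors of 0. The other tested Gria1 probe set differed by −0.02, and the 2 others of Gria2 by −0.11 and 0.13.

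**Figure D4:**
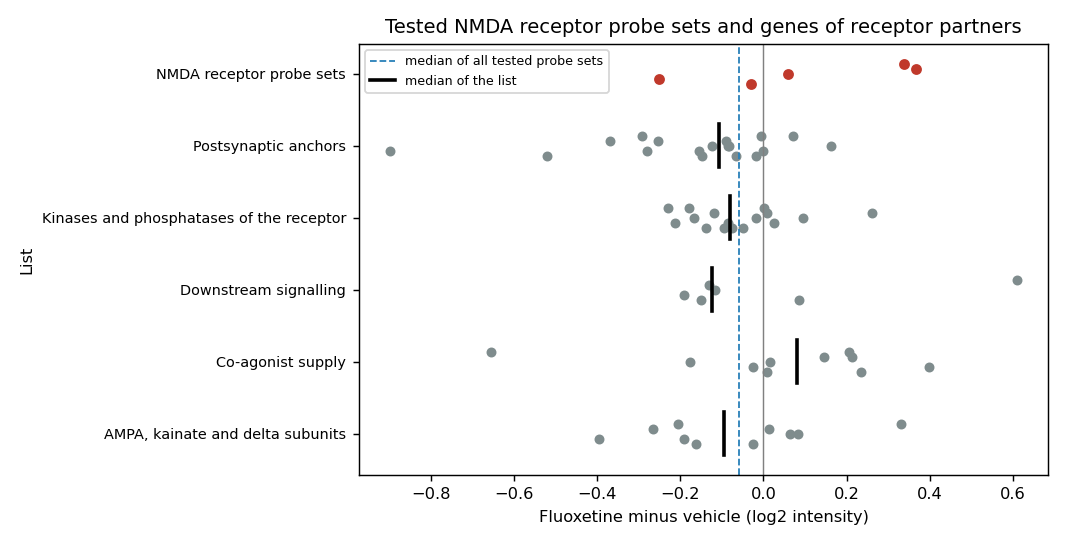
Fluoxetine minus vehicle in log2 intensity; red points are the 5 tested NMDA receptor probe sets, grey points are genes of 5 partner lists (brightest probe set of each), black bars are list medians and the dashed line is the median of all tested probe sets (−0.06). No point passed limma's test, and of the 5 lists the co-agonist supply list has a median above 0 (0.08).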

How the data were processed

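Each array's deposited column holds linear intensity that the authors made with GCRMA, per the submitters' processing notes (version not given in the sources used here), from RNA of which 15 ng entered amplification per the labels' protocols. GCRMA models background on probe sequence, aligns the arrays' distributions and summarises each probe set, so dim values crowd near a floor. No genome build applies. Of 45101 rows, 64 array controls were left out, and 34945 probe sets had 1 gene symbol, 932 several and 9160 none. No protein sequence table or sequence of the array's probes was used here.

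Values were taken to log2 without offset. Fluoxetine minus vehicle was fitted by lmFit and eBayes of limma 3.58.1 in R 4.3.3, two-sided and without a block, on the 22326 probe sets with a geometric mean of at least 50 over the 6 arrays (50 is the level of the submitters' recommended filter), with Benjamini-Hochberg adjustment over all of them, at 0.05. The standard errors had a median of 0.154 (log2). The number of arrays limits precision. The code was tested on simulated data.

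A gene outside the 6 was represented by its brightest probe set. Named were all member probe sets, S100a10, fixed partner genes whatever their values, the 3 genes nearest each tested subunit by correlation, and marker genes. Members and lists were chosen with earlier results of these data known. Homer1, Shmt1 and the markers Gfap, Aqp4, Gja1, Gjb6, Sox9, Olig1, Sst, Vip, Col1a1, Lum and Vtn were named after their values were seen.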

Additional observations from a re-analysis of the deposited data

How the results depend on the processing

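Under the 17 other settings limma called 0 probe sets and 0 partner genes each time. These were no filter, a minimum of 100 (which dropped Grin2d), a mean of 50 in both groups, an offset of 16, 2 scalings, a replicate block, array weights, trend and robust variance, no probe sets that can match several genes, and 7 sets of arrays. The smallest adjusted p of any member was 0.742, without the filter, where Grin2b 1422223_at alone of the 11 had an unadjusted p under 0.05 (0.047).

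Leaving out 1 array at a time gave differences of −0.0051 to 0.73 (Grin3a 1438866_at), 0.0082 to 0.68 (Grin3a 1436575_at), −0.10 to 0.075 (Grin2b 1457003_at), −0.57 to 0.14 (Grin2b 1442370_at) and −0.041 to 0.13 (Grin2d 1442328_at). Relative to Grin2b, Grin3a ranged from −0.053 to 0.82 and Grin2d from −0.017 to 0.18, and Grin3a relative to Grin2d from −0.13 to 0.64. The list medians ranged from −0.10 to 0.38 (co-agonist supply), −0.17 to −0.069 (anchors), −0.15 to 0.0064 (kinases and phosphatases), −0.22 to −0.0035 (downstream signalling) and −0.21 to 0.015 (other glutamate receptor subunits). Of 26 partner genes followed, 15 took both signs. Without both fluoxetine 1 and vehicle 2 the differences were −0.019 for Grin3a 1438866_at, 0.26 and 0.15 for Grin2b 1442370_at and 1457003_at, −0.20 for the co-agonist median, 0.040 for the downstream median and 0.027 for that of the other receptor subunits. There Grin3a was −0.17 relative to Grin2b and −0.14 relative to Grin2d, and Grin2d was −0.029 relative to Grin2b. Grin2b 1457003_at was 0.025 with quantile normalization and 0.030 with a shift of the arrays to one median. Quantile normalization moved the medians of anchors, kinases, downstream genes and other receptor subunits to −0.035, −0.0059, −0.049 and −0.028. It moved the median of all tested probe sets from −0.058 to −0.00099. The cause of the changes between settings was not tested.

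At an unadjusted p under 0.05, 563 probe sets passed in all, against 2631 without the filter, 1198 without fluoxetine 2, 350 with the replicate block and 318 without vehicle 2. The block changed no call (0 called, smallest member p 0.280). Correlations of deviations were −0.25, −0.03 and −0.50 for same-numbered samples, and between −0.27 and 0.43 for the others. With 3 arrays per group they cannot show whether same-numbered samples were handled together. The main fit did not take the numbers as pairs. Contrasts with Grin1, and Grin2a with Grin2b, were planned and not run, since neither Grin1 nor Grin2a had a tested probe set.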
